A study of Mus musculus with 14 samples.

Results

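The immunoproteasome and class I loading genes are 9 genes whose products cut proteins into peptides and place those peptides on class I molecules. They are Psmb8, Psmb9, Psmb10, Psme1, Psme2, Tap1, Tap2, Tapbp and B2m, chosen by symbol from knowledge of the pathway, with earlier results of these data known. Every probe set annotated to these symbols was followed, which found 9 of 9 genes with 14 probe sets among the 12488 on the array. Testing required a signal over the 40th percentile of the same array on 2 or more arrays. By that filter 12 of the 14 were tested, among 8938 tested probe sets. Those annotated to a single gene stand for 6541 genes. The 2 not tested were a dim Psme1 probe set (161293_r_at, 6.6 to 54.5 over all arrays) and a dim Psme2 probe set (161938_r_at, 5.4 to 35.8).

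The proteasome is a barrel-shaped protease that degrades proteins in the cytosol and nucleus. In lymphoid cells, and elsewhere after interferon-gamma, the catalytic subunits Psmb5, Psmb6 and Psmb7 are replaced by Psmb8 (LMP7), Psmb9 (LMP2) and Psmb10 (MECL-1), and the resulting immunoproteasome yields peptides well suited to class I molecules. Psme1 and Psme2 form the activator PA28 that opens the barrel. Tap1 and Tap2 form the transporter that carries peptides into the endoplasmic reticulum, Tapbp (tapasin) bridges that transporter to empty class I molecules, and B2m is the light chain that every classical class I molecule needs to reach the cell surface.

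The samples were RNA labelled as mouse lymph node, each hybridised to a one-colour Affymetrix array. The comparisons address how these genes respond to ionizing radiation (IR) with and without Atm, the kinase that signals DNA double-strand breaks. WT (Atm+/+) and KO (Atm-/-) nodes were each measured on 3 untreated arrays, on 2 arrays from 30 min after IR and on 2 arrays from 120 min after IR. The sources used here do not give strain, age, sex, node site, radiation dose or the allele that removes Atm. The labels do not say that replicates came from separate animals, so the p-values below measure the spread between these samples, which may be technical. The Atm probe set 101180_at read 5.5 to 55.9 in WT and 7.5 to 44.0 in KO, overlapping and near the floor, so it does not check the genotype labels.

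Values are intensities in arbitrary units, scaled by the authors so that each array has the same trimmed mean (150.0). They can be compared between arrays for the same probe set, not between probe sets. Array medians lay between 61.0 and 80.4, and the mean correlation of an array with the others was lowest for KO 30 min A (0.923), WT untreated A (0.943) and KO 120 min A (0.947). Markers of lymphocytes were present on all arrays (summed intensity of 11 B-cell markers 1078.4 to 3109.3). Markers of salivary gland, a tissue that lies against the nodes of the neck, were high on all arrays as well (summed intensity of 7 markers 38952.7 to 69916.4). Changes below are log2 differences of group means on quantile-normalized log2(value + 32), with their standard errors. A change was called at an adjusted p (limma, Benjamini-Hochberg over all 8938 probe sets) under 0.05.

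Of the 9 genes, 4 adjoin in the genome and the rest lie apart or in a pair. By the order of genes in the RefSeq annotation of GRCm38.p6, H2-DMb1, Psmb9, Tap1, Psmb8, Tap2 and H2-Ob follow each other on chromosome 17, inside the class II region, and Tapbp lies elsewhere on that chromosome. Psme1 and Psme2 lie on chromosome 14 with only Emc9 between them, Psmb10 is on chromosome 8 and B2m on chromosome 2. RefSeq promoter windows, which run from 250 bases before to 50 bases after a start site, were matched for 8 of the 9 genes; Tap2 was not matched. The start sites of Psmb9 and Tap1 lie 226 bases apart and the genes are read away from each other, so that 275 of the 300 bases of their windows are the same. The run between those start sites is shown because these genes gave the largest differences between the genotypes at 120 min among the members (only that of Psmb9 was called), with the upstream bases of Psmb8, which is also high in lymphoid cells, and of B2m, whose intensity varied little. All are on the plus strand of GRCm38.p6, at chr17:34187331-34187555, chr17:34197945-34198194 and chr2:122147437-122147686. Capitals mark matches to motifs described in the next paragraph.
Psmb9 and Tap1: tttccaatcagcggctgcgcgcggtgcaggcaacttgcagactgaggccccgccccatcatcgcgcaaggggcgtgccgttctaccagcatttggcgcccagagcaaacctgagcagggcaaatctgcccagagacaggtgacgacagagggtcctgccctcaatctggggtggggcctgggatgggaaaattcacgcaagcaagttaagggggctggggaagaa
Psmb8: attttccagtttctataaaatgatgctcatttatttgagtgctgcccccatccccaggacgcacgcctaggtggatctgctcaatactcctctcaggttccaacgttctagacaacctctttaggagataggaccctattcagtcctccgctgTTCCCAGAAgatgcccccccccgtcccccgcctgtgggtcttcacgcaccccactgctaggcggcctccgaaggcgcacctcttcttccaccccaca
B2m: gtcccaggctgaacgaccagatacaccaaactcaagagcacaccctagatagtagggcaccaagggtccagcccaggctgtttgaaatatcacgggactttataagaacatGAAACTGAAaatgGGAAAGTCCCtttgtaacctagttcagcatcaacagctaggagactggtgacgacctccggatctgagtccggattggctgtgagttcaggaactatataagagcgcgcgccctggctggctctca

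The 3 motifs searched on both strands were the STAT site TTCNNNGAA, the IRF element GAAANNGAA and the kB consensus, the binding site of NF-kB. They were searched in all 300 bases of each window. Of 32851 mouse windows, 8.30% held the STAT site, 8.56% the IRF element and 4.51% the kB consensus. The Psmb8 window held the STAT site TTCCCAGAA at -97 from the start. The B2m window held the IRF element GAAACTGAA at -139 and, overlapping nothing, the kB match GGAAAGTCCC at -126. The only other match among the 9 windows was an IRF element after the start of Psme1, at 10. The windows of Psmb9 and Tap1 held none of these letters. A match is a description of the sequence, and the absence of a match says nothing about binding.

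Of all member probe sets and all 12 comparisons tested, a single difference was called: Psmb9 was higher in KO than in WT at 120 min. That comparison called 0.257% of all probe sets, 0.0224% as higher and 0.235% as lower, so Psmb9 was 1 of only 2 probe sets called higher in KO, the other being an immunoglobulin heavy chain probe set (Ighm, 93583_s_at, 2.22, adjusted p = 0.169 without WT 120 min B and 0.171 without KO 120 min A). Ighm probe sets differed in direction at 120 min. The probe set 99420_at read 1015.9 and 784.7 in KO against 1884.0 and 2016.4 in WT, whereas 93584_at read 360.8 and 250.6 against 95.4 and 96.1. For 99420_at the genotypes already differed untreated (682.3, 1695.5 and 1841.8 in KO, 2599.3, 2616.5 and 3376.9 in WT). For 93583_s_at they overlapped untreated (1502.7, 1861.0 and 1207.6 in KO, 660.4, 1295.7 and 999.4 in WT). In KO against WT at 120 min, 3 of the 12 member probe sets had an unadjusted p under 0.05 (7.17% of all). Within WT at 120 min, 0 of 12 member probe sets were called (0.515% of all), with 2 at an unadjusted p under 0.05 (8.66% of all). Within KO at 120 min, 0 of 12 were called (0.000% of all), with 3 at an unadjusted p under 0.05 (7.22% of all). At 30 min the counts were 0 of 12 in WT (0.101% of all) with 1 at an unadjusted p under 0.05 (5.02% of all), and 0 of 12 in KO (0.000% of all) with 1 (8.38% of all). Between untreated genotypes 0 of 12 were called (0.000% of all) and 0 had an unadjusted p under 0.05 (5.48% of all). These tests were by limma. The median change of the 12 probe sets was -0.09 in WT and 0.07 in KO at 120 min, against medians of -0.0045 and -0.003 over all probe sets.

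**Figure D1:**
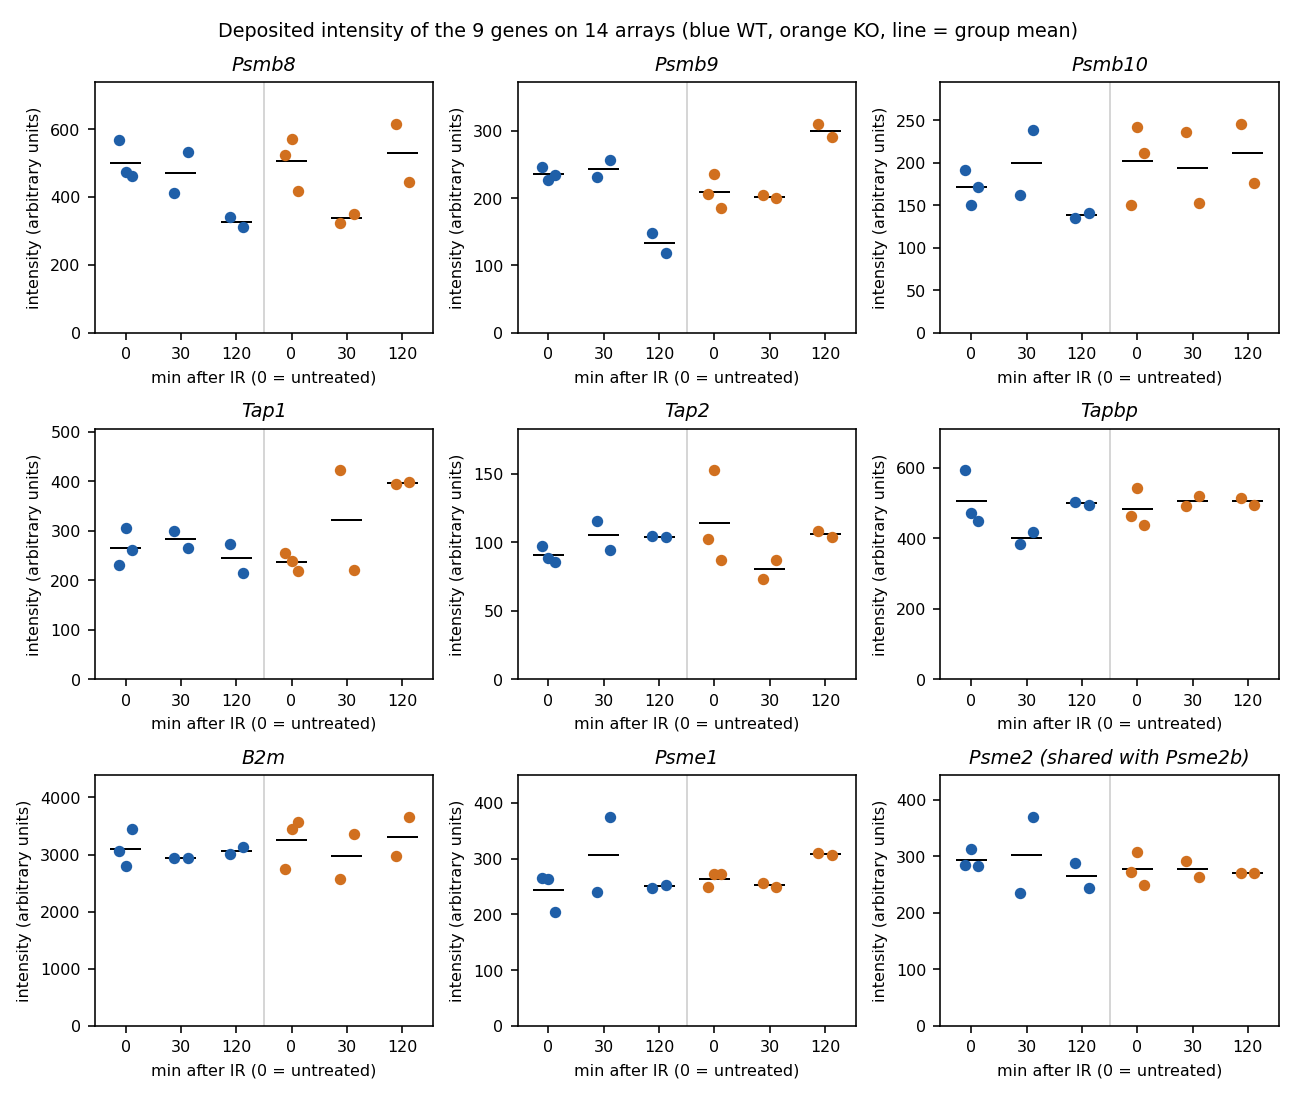
Deposited intensity (arbitrary units, axis from 0) of the best measured probe set of each of the 9 genes, by minutes after IR, with 1 point per array, WT in blue, KO in orange and the group mean as a line. Psmb9 separates the 2 genotypes at 120 min (118.9 and 148.7 in WT, 290.2 and 310.3 in KO), whereas B2m stays between 2572.2 and 3657.5 on all 14 arrays.

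Psmb9 (93085_at), the immunoproteasome subunit that takes the place of Psmb6, showed the widest separation. The WT values were 245.7, 226.4 and 234.2 untreated, 231.8 and 256.3 at 30 min, then 148.7 and 118.9 at 120 min. In KO it read 206.2, 235.2 and 185.7 untreated, 204.2 and 200.6 at 30 min, then 310.3 and 290.2 at 120 min. The WT arrays at 120 min were thus the lowest of all 14 and the KO arrays at 120 min the highest. The genotypes overlapped when untreated. At 120 min Psmb9 was 2.0-fold higher in KO than in WT (log2 difference 0.998 ± 0.18, 95% interval 0.62 to 1.38, adjusted p = 0.0351). The call held in only 3 of the 14 fits that left out 1 array, those lacking KO untreated B or either KO 30 min array. The adjusted p reached 0.489 without WT 120 min B and 0.322 without KO 120 min A and lay between 0.0515 and 0.0953 when 1 of the other 9 arrays was left out, while the log2 difference in those 14 fits lay between 0.85 and 1.14.

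Within each genotype the change of Psmb9 at 120 min was not called. In WT it was -0.68 ± 0.16 (adjusted p = 0.128) and in KO 0.47 ± 0.16 (adjusted p = 0.606). In WT both irradiated arrays lay below all untreated arrays, and in KO both lay above them. The KO response minus the WT response was 1.15 ± 0.23 (adjusted p = 0.110), which missed the threshold and ranked 20 among all probe sets by p. Of the 8938 probe sets, 126 (1.41%) showed the same arrangement as Psmb9, lower in WT and higher in KO at 120 min with no overlap, and 122 (1.36%) the reverse. At 30 min the changes were 0.05 ± 0.16 in WT and -0.05 ± 0.16 in KO, and the untreated genotypes differed by -0.15 ± 0.14 (adjusted p = 0.988).

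Psmb8 (102791_at), the subunit that replaces Psmb5, varied more between replicates. In WT it read 567.0, 474.0 and 463.2 untreated, 411.5 and 531.9 at 30 min, then 342.7 and 311.8 at 120 min. In KO it read 524.6, 571.6 and 418.5 untreated, 324.8 and 349.6 at 30 min, then 615.5 and 444.4 at 120 min. The low arrays were WT at 120 min and KO at 30 min, and each of these groups lay below all untreated arrays of its genotype. The log2 change was -0.60 ± 0.20 in WT at 120 min (adjusted p = 0.390) and -0.53 ± 0.20 in KO at 30 min (adjusted p = 0.512). In KO at 120 min it was 0.06 ± 0.20, with 1 array above and 1 within the untreated range. The KO minus WT difference at 120 min was 0.66 ± 0.22 (1.58-fold, adjusted p = 0.435) with no overlap, and none of these changes was called.

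Psmb10 (101486_at), the subunit that replaces Psmb7, varied within most groups. Its WT values were 190.8, 150.4 and 171.6 untreated, 161.6 and 238.6 at 30 min, then 135.5 and 140.5 at 120 min. Its KO values were 150.7, 241.8 and 211.6 untreated, 236.4 and 152.1 at 30 min, then 245.5 and 176.1 at 120 min. Only the WT arrays at 120 min lay close together, below every other array. The change in WT at 120 min was -0.22 ± 0.24 (adjusted p = 0.858), and the KO minus WT difference at 120 min was 0.49 ± 0.26 (adjusted p = 0.767).

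The constitutive subunits that these 3 replace gave 0 of 3 calls in either genotype at 120 min (0.515% of all probe sets were called in WT and 0% in KO). In WT at 120 min the log2 changes were -0.02 ± 0.18 for Psmb5, 0.09 ± 0.32 for Psmb6 and 0.11 ± 0.24 for Psmb7. The KO minus WT differences at 120 min were 0.13 ± 0.19, 0.28 ± 0.35 and -0.16 ± 0.27 in the same order. The value for Psmb6 includes 1 low array, WT untreated A, at 123.9 against 247.4 to 390.5 on the others.

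Tap1 was measured by 2 probe sets that gave changes of opposite sign in KO. The bright one (103035_at) read 231.1, 304.9 and 260.7 in untreated WT, 300.2 and 265.1 at 30 min, then 273.4 and 215.0 at 120 min. In KO it read 254.7, 239.7 and 218.1 untreated, 422.0 and 220.7 at 30 min, then 394.9 and 398.9 at 120 min. Both KO arrays at 120 min thus stood above every WT array and every untreated KO array, as did KO 30 min A, whose partner did not. The change in KO at 120 min was 0.69 ± 0.23 (1.61-fold, adjusted p = 0.606), that in WT was -0.12 ± 0.23 (adjusted p = 0.932), and the KO minus WT difference at 120 min was 0.68 ± 0.26 (adjusted p = 0.551). The KO response minus the WT response at 120 min was 0.81 ± 0.33 (adjusted p = 0.654).

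The dim Tap1 probe set (162278_r_at) passed the filter on 4 arrays only and read 19.8 to 67.4 over all arrays. In KO at 120 min it read 23.6 and 21.7, below the untreated 38.8, 67.4 and 39.5. Its change there was -0.54 ± 0.22 (adjusted p = 0.662), opposite in sign to that of the bright probe set. On the log2(value + 32) scale a change in such low values is understated, and neither probe set was called.

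Tap2 (102873_at), the partner chain of the transporter, ranged from 73.1 on KO 30 min A to 152.5 on KO untreated B. Its WT arrays read 97.5, 88.5 and 85.5 untreated, 115.7 and 94.7 at 30 min, then 104.4 and 104.0 at 120 min. The other KO arrays read 102.7 and 87.4 untreated, 87.4 at 30 min, then 108.0 and 103.7 at 120 min. At 120 min the genotypes overlapped, with a difference of -0.01 ± 0.21 (95% interval -0.48 to 0.45), and the changes from untreated were 0.19 ± 0.19 in WT and -0.05 ± 0.19 in KO. Tap2 lies next to Psmb8 in gene order, and its value at 120 min did not separate the genotypes as Psmb9, Psmb8 and the bright Tap1 probe set did.

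Tapbp had 3 probe sets. The brightest (100154_at) read 592.0, 472.1 and 449.4 in untreated WT, 384.4 and 418.3 at 30 min, then 502.2 and 494.9 at 120 min, with a change of -0.32 ± 0.17 at 30 min (adjusted p = 0.980) and -0.05 ± 0.17 at 120 min. Its KO arrays lay between 437.9 and 543.0 at all times. The probe set 102689_at read 305.4, 254.1 and 227.0 in untreated WT and 329.4 and 321.5 at 120 min, and 292.9, 386.4 and 283.3 in untreated KO and 272.1 and 255.5 at 120 min. It was thus higher than untreated on both WT arrays and lower on both KO arrays at 120 min, by 0.27 ± 0.19 and -0.24 ± 0.19, and the difference of the responses was -0.51 ± 0.27 (adjusted p = 0.774). The remaining probe set, 162104_f_at, gave the opposite signs (-0.18 ± 0.19 in WT and 0.22 ± 0.19 in KO). No Tapbp probe set was called in any comparison.

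B2m (93088_at) was among the brightest probe sets, at the 99.0th to 99.4th percentile of each array. It read 3067.9, 2794.6 and 3440.4 in untreated WT, 2944.3 and 2933.0 at 30 min, then 3005.9 and 3128.4 at 120 min. In KO it read 2753.7, 3452.2 and 3577.8 untreated, 2572.2 and 3364.9 at 30 min, then 2973.2 and 3657.5 at 120 min. Every irradiated group overlapped its untreated group. The changes at 120 min were -0.01 ± 0.18 in WT (95% interval -0.39 to 0.37) and -0.20 ± 0.18 in KO, and the KO minus WT difference was -0.09 ± 0.19 (adjusted p = 0.972). The sign of the KO change turned without normalization between arrays (0.03) and with median centring (0.04), so no direction can be given for it.

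The subunits of the activator PA28 were not called in any comparison. Psme1 (101510_at) read 265.5, 263.8 and 203.5 in untreated WT, 239.7 and 374.5 at 30 min, then 247.0 and 253.1 at 120 min. In KO it read 248.8, 271.5 and 272.6 untreated, 256.9 and 248.7 at 30 min, then 310.9 and 305.8 at 120 min. The KO arrays at 120 min lay above all untreated arrays, with a change of 0.21 ± 0.19 (adjusted p = 0.855), and WT 30 min B alone read higher. The Psme2 probe set 100588_at, which the annotation assigns to Psme2 and its near copy Psme2b together, read 234.5 to 369.2 over all arrays, and its changes at 120 min were -0.14 ± 0.19 in WT and -0.01 ± 0.19 in KO. WT 30 min B was the highest array for both subunits. The related activators Psme3 and Psme4 changed by 0.27 and 0.07 in WT at 120 min, with 0 of 2 called (0.515% of all probe sets).

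**Figure D2:**
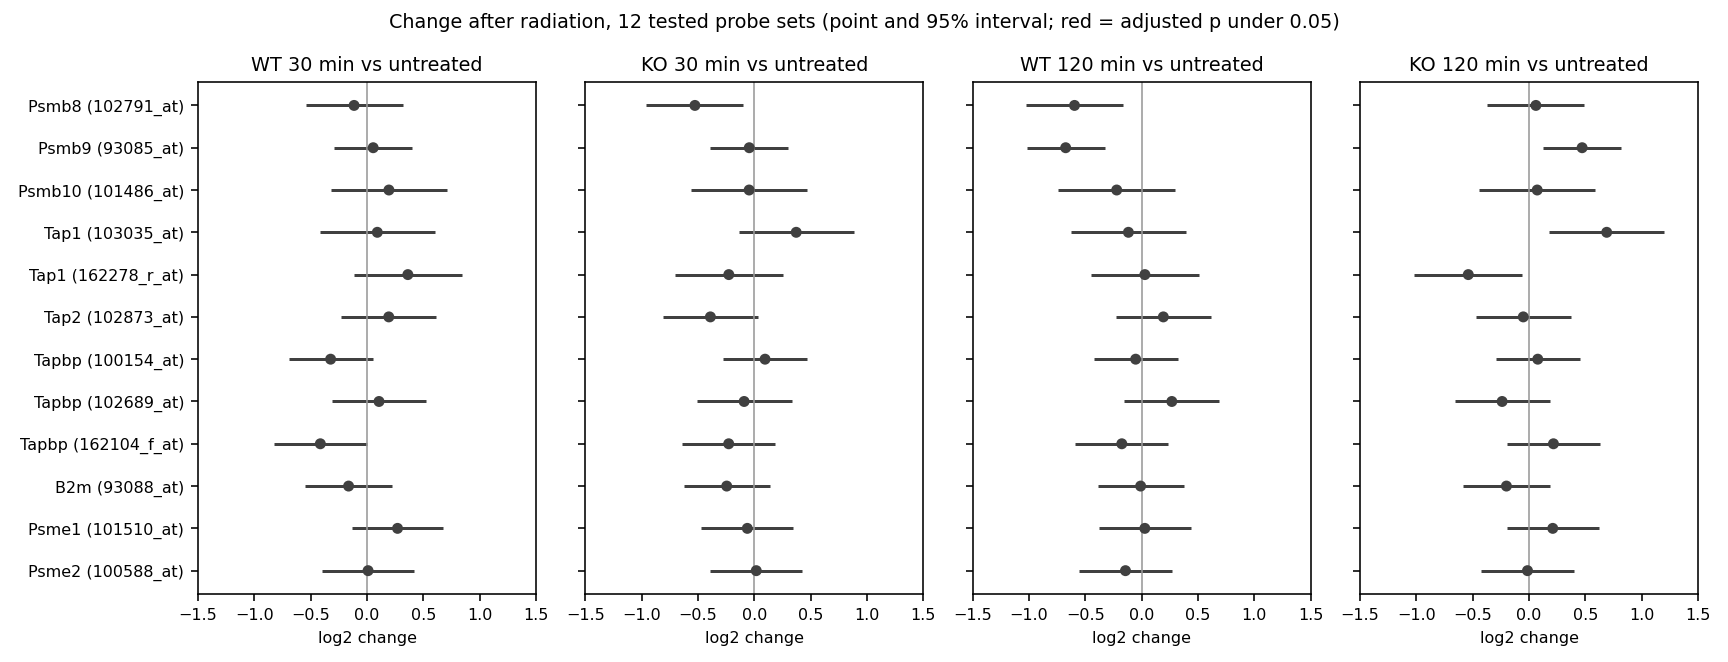
Log2 change after radiation against the untreated arrays of the same genotype, for the 12 tested probe sets, as a point with its 95% interval. No interval is marked as called; those of Psmb9 and Psmb8 lie below 0 in WT at 120 min (-0.68 and -0.60), and those of Psmb9 and the bright Tap1 probe set lie above 0 in KO at 120 min (0.47 and 0.69). Also below 0 are those of the dim Tap1 probe set in KO at 120 min (-0.54), Psmb8 in KO at 30 min (-0.53) and 162104_f_at of Tapbp in WT at 30 min (-0.41).

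Counted over the 12 probe sets on the normalized scale, the irradiated and untreated groups did not overlap for 5 in WT at 120 min (2 higher, against 13.3% of all probe sets, and 3 lower, against 13.6%; 27.0% in either direction) and for 6 in KO at 120 min (4 higher, against 13.0%, and 2 lower, against 13.7%; 26.7% in either direction). At 30 min they did not overlap for 3 in WT (2 higher, against 9.83% of all, and 1 lower, against 9.88%; 19.7% of all in either direction) and 2 in KO (both lower, against 11.3%; 11.1% of all were higher and 22.4% either). Between genotypes the groups did not overlap for 0 untreated (5.56% of all higher, 5.09% lower, 10.7% in all). They did not overlap for 5 at 30 min (1 higher in KO, against 15.2% of all, and 4 lower, against 16.6%; 31.8% in either direction). At 120 min they did not overlap for 8 (6 higher in KO, against 20.6% of all, and 2 lower, against 20.9%; 41.5% in either direction). The 6 that were higher in KO at 120 min were Psmb9, Psmb8, Psmb10, Psme1, the bright Tap1 probe set and 162104_f_at of Tapbp, and the 2 that were lower were the dim Tap1 probe set and 102689_at of Tapbp. The comparisons between genotypes share their arrays with those against untreated, so they are not separate evidence.

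At 30 min no member was called. The largest differences between genotypes were -0.45 ± 0.24 for the dim Tap1 probe set, -0.41 ± 0.22 for Psmb8 and 0.35 ± 0.19 for 100154_at of Tapbp, with a smallest adjusted p of 0.751. There 0 of 12 were called (0.101% of all probe sets, 0.0112% higher and 0.0895% lower) and 0 had an unadjusted p under 0.05 (6.70% of all). The change of the bright Tap1 probe set in KO at 30 min (0.37 ± 0.23) rested on 1 array and was -0.09 without KO 30 min A. The change of Psme1 in WT at 30 min (0.27 ± 0.19) likewise was -0.02 without WT 30 min B. Averaged over genotypes, Psmb8 at 30 min gave -0.32 ± 0.14 (adjusted p = 0.589), and averaged over conditions the KO minus WT difference of Psmb9 was 0.20 ± 0.10 (adjusted p = 0.795).

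**Figure D3:**
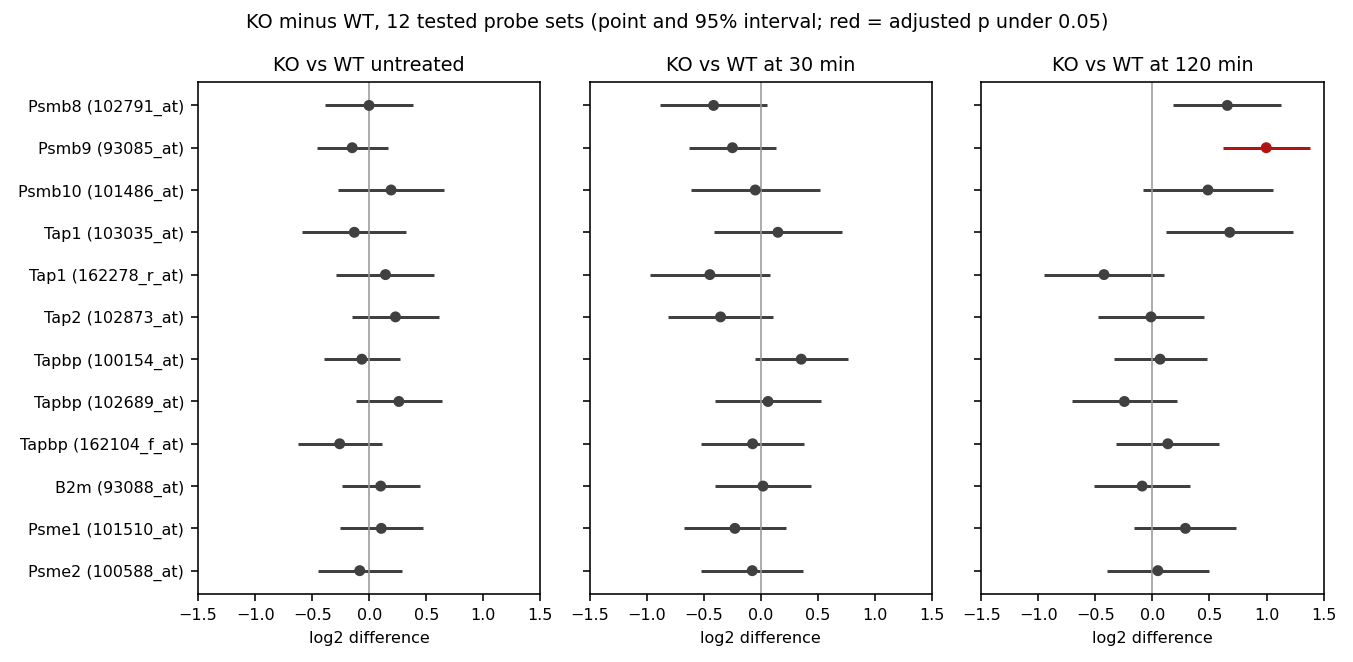
KO minus WT log2 difference with its 95% interval for the 12 tested probe sets, untreated, at 30 min and at 120 min after IR, with called differences in red. Psmb9 at 120 min (0.998) is the only red point, and every interval of the untreated comparison includes 0.

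Among factors known to induce these genes, Relb and Irf1 rose in WT. Of 14 measured factors of the interferon and NF-kB pathways, 2 rose in WT at 120 min (0.470% of all probe sets were called higher), and 0 fell. Relb, an NF-kB subunit, read 62.6, 20.5 and 28.7 untreated and 277.4 and 257.4 at 120 min, a change of 2.14 ± 0.28 (adjusted p = 0.00272; 0.0528 when WT 120 min A was left out and 0.0508 when B was). Irf1, the transcription factor that acts on interferon response elements of class I genes, read 241.2, 201.0 and 175.2 untreated, 329.3 and 305.0 at 30 min, then 594.5 and 609.8 at 120 min, a change of 1.40 ± 0.19 (adjusted p = 0.00487; 0.0528 when WT 120 min A was left out and 0.111 when B was). In KO at 120 min the changes were 0.26 ± 0.28 for Relb and 0.34 ± 0.19 for Irf1, with 0 of 14 called (0% of all probe sets). Relb was lower in KO than in WT at 120 min (-1.75 ± 0.30, adjusted p = 0.0317), a call that held in 8 of 14 fits that left out 1 array (adjusted p up to 0.370, without KO 120 min A) and in 5 of 10 other settings, and the difference of Irf1 was -0.96 ± 0.21 (adjusted p = 0.115). At the time when Irf1 and Relb were highest in WT, Psmb9 and Psmb8 were at their lowest WT values, in changes that were not called. A link between these factors and the members was not tested. As a reference for the radiation response, 5 of 5 genes induced through NF-kB or p53 rose in WT at 120 min. Among them were Cxcl1 (4.05), Cdkn1a (2.59), Nfkbia (2.42) and Tnfaip3 (2.33). In KO 0 of 5 were called, but so were 0% of all probe sets. That count therefore does not show that these genes failed to respond in KO. There Cdkn1a read 67.2, 91.5 and 81.7 untreated and 194.1 and 177.5 at 120 min. Cxcl1 in KO read 66.2, 82.6 and 46.2, then 72.2 and 40.7, which overlap. Nfkbia changed by 0.15 ± 0.16 in KO, and Tnfaip3 stayed near the floor (3.0 to 18.1 on these arrays). In WT at 120 min Cxcl1 read 987.3 and 1828.6, and Tnfaip3 read 210.7 and 220.2. For Nfkbia a smaller response in KO was called. Its KO response minus the WT response at 120 min was -2.27 ± 0.22 (adjusted p = 0.00179). Another Nfkbia probe set gave -1.93 ± 0.27 (adjusted p = 0.0194).

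Among 13 measured interferon-induced genes outside the pathway, 0 were called at 120 min in either genotype (0.515% of all probe sets in WT and 0% in KO). By limma, 4 had an unadjusted p under 0.05 in WT (8.66% of all probe sets) and 2 in KO (7.22% of all). The median change of the 13 was -0.33 in WT and 0.11 in KO, and the largest in WT were Ifit3 (-0.80), Ifi47 (-0.62), Mx1 (-0.57) and Ifit1 (-0.53). None of 12 class I heavy chain genes was called in WT at 120 min (0.515% of all), with 0 at an unadjusted p under 0.05 (8.66% of all) and a median of -0.10. H2-M3 was at -0.46, H2-Bl at -0.38, H2-Q1 at -0.36 and H2-Q4 at 0.35. The value for H2-M3 includes a high array, WT untreated B, at 307.9 against 155.2 and 151.9 on the other untreated WT arrays. Many of these heavy chains are near-identical copies, and the signal of a probe set can come from several of them. Of 4 measured chaperones of the endoplasmic reticulum, 0 were called in WT at 120 min (0.515% of all), with Pdia3 at -0.41, Hsp90b1 at 0.17 and Canx at -0.11.

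The rest of the proteasome gave 0 calls in WT at 120 min, where 0.515% of all probe sets were called. None of 14 core subunits and assembly factors was called, with a median of -0.02 and 0 at an unadjusted p under 0.05 (8.66% of all). None of 19 subunits of the regulatory cap was called, with a median of 0.08 and 3 at an unadjusted p under 0.05 (8.66% of all probe sets). The largest changes were Psmd10 (0.74), Psmd1 (0.73), Psmd5 (-0.51) and Psmc4 (-0.41). WT untreated A read low for Psmd10 (18.5 against 72.4 and 48.9 on the other untreated WT arrays) and for Psmd1 (97.0 against 258.6 and 197.5).

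Genes that neighbour Psmb9 and Tap2 in the class II region, with the class II genes and their regulators, had a median change of -0.44 in WT and 0.27 in KO at 120 min. Of the 11 measured, 1 fell in WT (0.0448% of all probe sets were called lower). It was H2-Ob, next to Tap2, which modulates peptide loading on class II molecules in B cells and read 148.1, 176.2 and 135.7 untreated and 67.8 and 52.3 at 120 min (-0.95 ± 0.18, adjusted p = 0.0343). That call held in 2 of 14 fits that left out 1 array and in 7 of 11 other settings, with an adjusted p of 0.573 without WT 120 min B. H2-DMb1, next to Psmb9, was at -1.02, H2-Oa at -0.84 and H2-Ab1 at -0.56, none of them called. Between genotypes at 120 min the median of the 11 was 0.58, with 11 of 11 positive. Of these, 0 were called (0.257% of all probe sets) and 7 had an unadjusted p under 0.05 (7.17% of all).

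**Figure D4:**
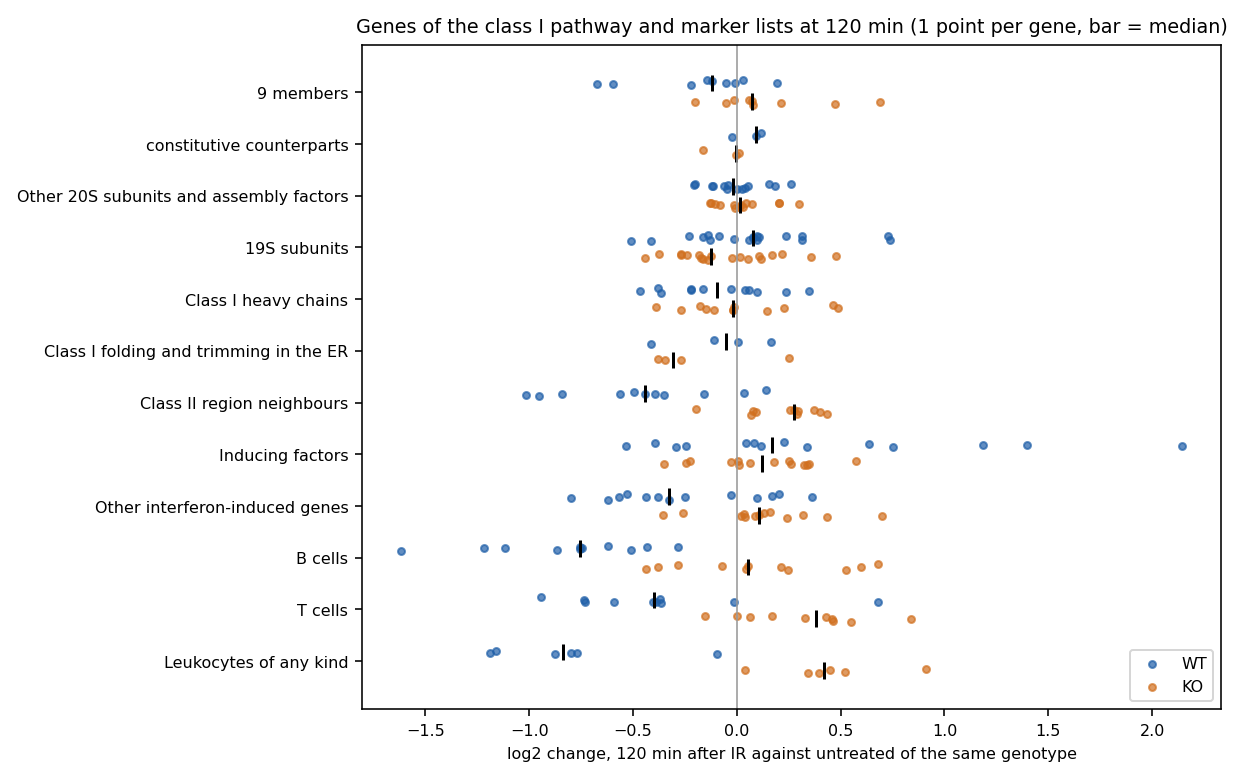
Log2 change at 120 min after IR against untreated arrays of the same genotype, with 1 point per gene and the median as a bar, for the 9 genes by their best measured probe set, related pathway lists and lymphoid marker lists (WT in blue, KO in orange). The medians of the 6 leukocyte markers are -0.84 in WT and 0.42 in KO, and Relb is the highest point of the inducing factors in WT at 2.14.

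The medians of the pan-leukocyte, B-cell and T-cell markers had the same signs as the changes of Psmb9 at 120 min. The summed intensity of 6 leukocyte markers was 2751.3 to 3279.5 in untreated WT and 1627.4 to 2058.4 in WT at 120 min, and 2090.8 to 3068.4 in untreated KO and 3173.7 to 4103.3 in KO at 120 min. Between genotypes at 120 min their median difference was 0.96, close in size to that of Psmb9 (0.998), with 6 of 6 positive. Of these, 0 were called (0.257% of all probe sets) and 6 had an unadjusted p under 0.05 (7.17% of all). Much of the rise of the sum in KO came from Laptm5, with a mean of 642.2 untreated and 1276.0 at 120 min. In WT its means were 672.3 and 649.3. Another Laptm5 probe set changed by 0.10 ± 0.21 in KO and -0.44 ± 0.21 in WT. In KO at 120 min Cd52 changed by 0.04 ± 0.25, and the rest of the list by 0.35 to 0.52. The 11 B-cell markers summed to 2270.3 to 2767.7 in untreated WT and 1078.4 to 1447.8 in WT at 120 min, and to 1913.4 to 2359.7 in untreated KO and 2445.0 to 3109.3 in KO at 120 min. The 12 T-cell markers summed to 925.4 to 988.1 in untreated WT, 615.8 to 628.6 in WT at 120 min, 634.0 to 842.7 in untreated KO and 799.7 to 981.6 in KO at 120 min, where the KO groups overlapped. Macrophage and dendritic cell markers had medians of 0.01 and 0.04 in WT at 120 min. In KO the macrophage markers summed to 2070.1 to 2257.5 untreated and 2243.1 to 3037.7 at 120 min. The dendritic cell markers there summed to 639.9 to 696.4 and 666.0 to 821.0, and both lists overlapped. Plasma cell markers summed to 2736.8 to 3179.7 in untreated WT and 2172.5 to 2565.9 in WT at 120 min. In KO they summed to 2470.8 to 3153.9 untreated and 2475.1 to 3335.0 at 120 min. The 5 markers of high endothelium and node stroma summed to 640.3 to 783.0 in untreated WT, 430.7 to 457.9 in WT at 120 min, 731.6 to 1105.8 in untreated KO and 716.9 to 937.7 in KO at 120 min. Such a sum is weighted to its brightest markers. Glycam1 had a mean of 425.8 in untreated WT and 182.4 in WT at 120 min, whereas Cxcl13 had 88.9 and 107.2. The 7 salivary gland markers summed to 46226.6 to 50760.2 in untreated WT, 47675.2 to 55314.5 in WT at 120 min, 38952.7 to 51571.7 in untreated KO and 62955.2 to 64568.6 in KO at 120 min. The mean of their normalized log2 values did not differ in that way: it was 12.096 to 12.178 in untreated KO and 12.113 and 12.154 in KO at 120 min. Skeletal muscle markers summed to 3019.9 to 9081.3 in untreated KO, 712.2 to 2805.8 in KO at 120 min and 2959.3 to 3127.6 in WT at 120 min. In bulk tissue, fewer cells of a type and less RNA per cell cannot be told apart, and the part of cell makeup in the Psmb9 difference was not tested.

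**Figure D5:**
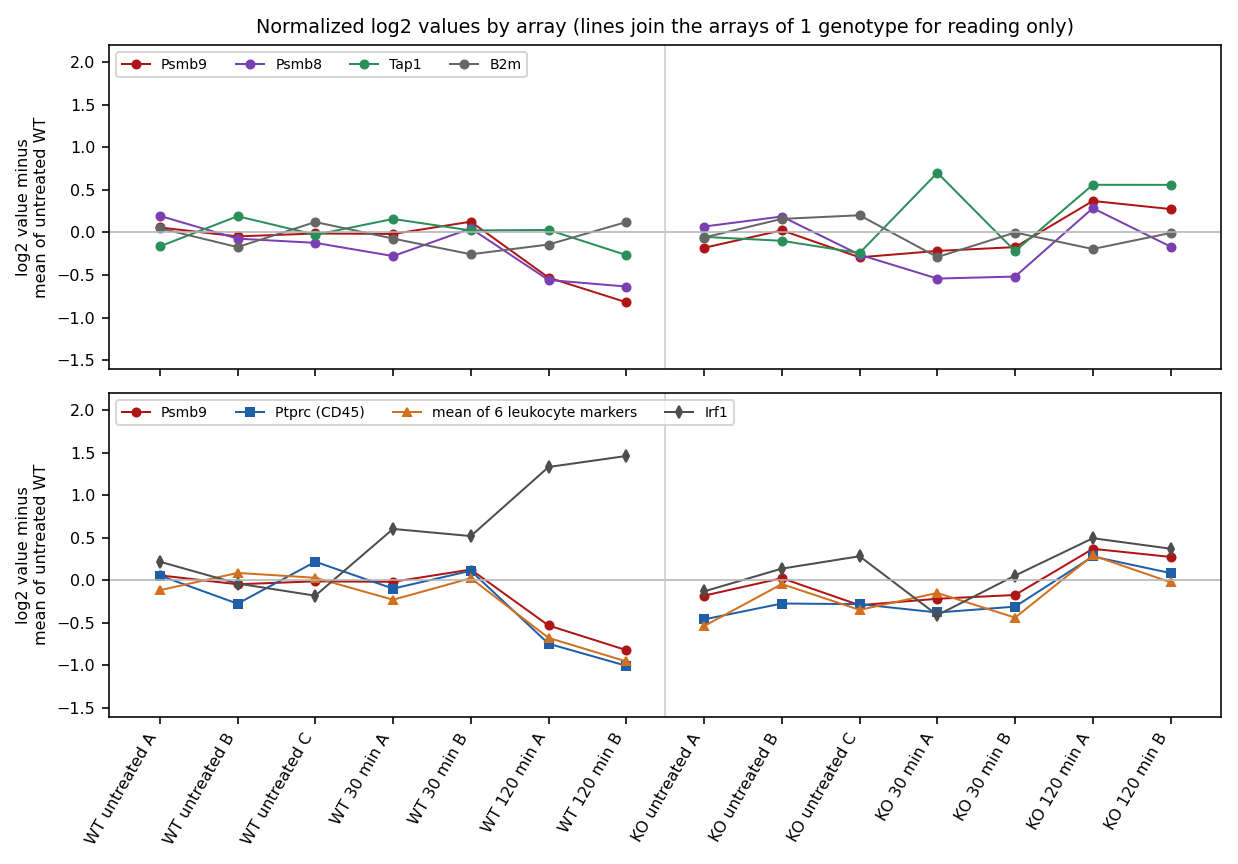
Normalized log2 values on each of the 14 arrays, minus the mean of untreated WT, for Psmb9, Psmb8, Tap1 and B2m (upper panel) and for Psmb9 with Ptprc, the mean of 6 leukocyte markers and Irf1 (lower panel). Psmb9 runs close to the Ptprc probe set 101048_at (r = 0.93 over 14 arrays) and away from Irf1 on the WT arrays at 120 min.

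Over the 14 arrays, the profile nearest to Psmb9 was sought among tested probe sets of a single gene outside the 9 genes. The nearest was that of a Ptprc probe set (101048_at, Pearson r = 0.926, Spearman rho = 0.912). This is the highest value among many candidates. For the other members the same search gave highest values between 0.806 (Tap2) and 0.902 (B2m, with Cryaa). Ptprc encodes the pan-leukocyte surface protein CD45. Ptprc (101048_at) read 124.9 to 184.1 in untreated WT, 61.7 and 70.7 in WT at 120 min, 106.0 to 123.7 in untreated KO and 165.2 and 195.6 in KO at 120 min. Another tested Ptprc probe set, 101298_g_at, was less clear. It changed by -0.44 ± 0.42 in WT and 0.49 ± 0.42 in KO at 120 min, and read 17.8 on WT 30 min A and 9.7 on KO 30 min A. The likeness is thus that of a single probe set. Its correlation with Psmb9 was 0.956 on the 7 WT arrays, 0.918 on the 7 KO arrays and 0.722 on the 10 arrays that are not from 120 min. For Psmb8 against Ptprc it was 0.681 over all arrays, for Tap1 0.362 and for B2m -0.131. The arrays share their groups, so these values describe likeness and carry no test.

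Most like the mean of the 9 genes were Lsp1 (r = 0.880), a leukocyte actin-binding protein, H2-Aa (0.848), a class II chain, Ran (0.819), Crip1 (0.817) and AW112010 (0.804). The nearest profiles to the other members were Ankrd10 for Psmb8 (0.884), Wtap for Psmb10 (0.830), Plin2 for Tap1 (0.897), Tnfaip1 for Tap2 (0.806), Ppfibp2 for Tapbp (0.824), Cryaa for B2m (0.902), Syngr4 for Psme1 (0.867) and Isca2 for the shared Psme2 probe set (0.874). Each member thus had a different nearest gene. Among the members themselves the closest pair was Psmb9 and Psmb8 (0.759), followed by Psmb10 and Psme1 (0.593). Psmb9 and Tap1, which share a promoter region, reached 0.494, and Tap1 and Tap2, the chains of 1 transporter, -0.282.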

How the data were processed

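RNA from 14 mouse lymph node samples was measured on one-colour arrays. The authors deposited linear intensities, 1 for each probe set on each array, from 0.0 to 15198.3 with a common trimmed mean of 150.0, as read from the values. The sources used here do not give the software, the settings or the genome build. Groups and replicate letters came from the sample titles.

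The deposited intensities were taken as log2(value + 32), and quantile normalized because array medians then differed by up to 0.273. The 66 control probe sets were left out. In limma 3.58.1 (R 4.3.3), 1 fit with a mean for each of the 6 groups used all 14 arrays (8 residual and 4.56 prior degrees of freedom) for 12 comparisons: each time against untreated per genotype and averaged over genotypes, KO against WT per condition and averaged, and the difference of the responses at each time. The fit was tested on simulated data. Gene names came from the platform annotation; of all probe sets 10855 had 1 gene, 396 several and 1237 none, and the probe set of highest mean stands for each gene of a list. Precision is limited by the number of arrays.

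The members, pathway lists and marker lists were chosen with earlier results of these data known. All member probe sets are named, and of each pathway list up to 4 genes with the largest change in WT at 120 min. Profiles were compared by Pearson correlation of normalized values over the 14 arrays, naming 5 genes nearest the mean of the members and 1 nearest each member. Genes named outside this rule, chosen after their values were seen, are Atm, Ighm, Ptprc, Laptm5, Cd52, Glycam1 and Cxcl13, with the other members for comparison. Alternatives were no normalization, median centring, offsets of 16 and 64, a floor of 32, no filter, a filter on 7 arrays, only the groups compared, a replicate block, array weights and leaving out each array. Leaving out the 3 arrays of lowest correlation was added after seeing the data.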

Additional observations from a re-analysis of the deposited data

Results flagged for a closer look

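Psmb9 was lower than untreated on both WT arrays at 120 min and higher on both KO arrays, and the KO response minus the WT response was 1.15 (unadjusted p = 0.000245, adjusted p = 0.110 by limma). Over the alternatives this difference lay between 1.002 and 1.332 and the adjusted p between 0.0537 and 0.566.

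The Tapbp probe set 102689_at showed the opposite arrangement, higher on both WT arrays and lower on both KO arrays at 120 min, with a difference of the responses of -0.51 (adjusted p = 0.774). The other Tapbp probe sets gave 0.13 and 0.39 for the same difference, so the gene's probe sets differ in sign. Of all 8938 tested probe sets, 248 (2.77%) had 1 of these opposite arrangements.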

How the results depend on the processing

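The count of 1 called member probe set, Psmb9 in KO against WT at 120 min, became 0 with median centring (adjusted p = 0.100), with only the groups compared in the fit (0.271), with the replicate block (0.102) and without the 3 arrays of lowest correlation (0.327), and ranged from 0 to 1 when each array was left out. The difference itself stayed between 0.85 and 1.16. It remained called in 7 of 11 other settings. Over all tested probe sets, deviations of same-lettered arrays from their group means correlated between -0.121 and 0.0844. In the irradiated groups the deviations of replicates A and B mirror each other, so this check cannot exclude that the letters pair the samples. The count was 0 in each of the other 11 comparisons under every setting run. The changes of the 12 probe sets in the 12 comparisons have 3588 values under alternatives. Of these, 3405 kept direction and call, 15 lost the call (all Psmb9), 161 changed sign where the change was under 1 standard error, and 7 reversed where it was larger. Those reversed were Psme1 without WT 30 min B in WT at 30 min (-0.02) and between genotypes at 30 min (0.064), Tap1 in KO at 30 min without KO 30 min A (-0.09) and without the 3 arrays (-0.091), Tap1 at 30 min averaged over genotypes without the 3 arrays (-0.041), and B2m in KO at 120 min without normalization (0.025) and with median centring (0.038). Leaving out the partner array instead, WT 30 min A or KO 30 min B, gave 0.561 and -0.517 for the Psme1 changes and 0.83 for Tap1 in KO at 30 min. Except where the setting itself leaves out arrays, the cause was not tested. A filter on 7 arrays leaves out the dim Tap1 probe set. The signal of that probe set lies near the floor. The replicate block also ended the calls of Relb between genotypes (adjusted p = 0.0546) and of H2-Ob in WT (0.0973).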

Other observations

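Of the 36 pairs of the 9 genes, the most negative correlation was that of Tap1 and B2m, chosen after the values were seen. The bright Tap1 probe set and B2m ran against each other (Pearson r = -0.663, Spearman rho = -0.790 over 14 arrays), also on the 7 WT arrays (-0.685), on the 7 KO arrays (-0.786) and without KO 30 min A (-0.552). B2m is near the top of the intensity range of every array, and the value shared by these arrays is the common scaling; the part of saturation or scaling in this relation was not tested. Irf1 and Psmb9 had opposite signs of correlation in the genotypes, -0.839 on the 7 WT arrays and 0.686 on the 7 KO arrays, and on the 10 arrays that are not from 120 min the value was 0.450. These are descriptions over few arrays that share their groups.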
